A study of Mus musculus with 18 samples.

Results

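The CC chemokines are small secreted proteins with paired cysteines near the amino terminus that draw leukocytes out of the blood through G-protein-coupled CCR receptors. The 10 members described here were taken by symbol as Ccl2, Ccl3, Ccl4, Ccl5, Ccl6, Ccl7, Ccl8, Ccl9, Ccl11 and Ccl12, out of 24421 gene symbols in the count tables. All 10 were found, and all 10 passed the filter on low counts with 13859 genes in all. The members were ordered by role. Ccl2, Ccl7, Ccl8 and Ccl12 are monocyte attractants, of which Ccl2, Ccl7 and Ccl12 act largely through CCR2 and mouse Ccl8 is known as a ligand of CCR8. Ccl6 and Ccl9 are ligands of CCR1 made by myeloid cells, Ccl11 (eotaxin) attracts eosinophils through CCR3, and Ccl3, Ccl4 and Ccl5 attract lymphocytes and monocytes (Ccl3 and Ccl5 through CCR1 among others).

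In a heart injured by ischaemia and reperfusion, chemokines made by endothelial cells, fibroblasts, resident macrophages and arriving leukocytes bring neutrophils and then Ly6C-high monocytes into the tissue. Transcription of Ccl2, Ccl7 and related genes is driven in many cell types by NF-kB downstream of TNF, interleukin 1 and pattern recognition receptors. Sesn2 encodes sestrin 2, a stress-induced protein that acts on AMPK and mTORC1 signalling.

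RNA was sequenced from left ventricles of C57BL/6 mice in 6 groups of 3 libraries. Young wild-type (WT) and Sesn2-/- mice were 3 to 4 months old and aged WT mice 24 to 26 months. In each of these backgrounds, 3 hearts had the left anterior descending coronary artery closed for 45 min and then 24 h of reperfusion (IR), and 3 had sham surgery, in which the chest was opened without occlusion. Young WT mice were bought from Jackson, aged WT mice came from Charles River, and the Sesn2-/- mice were from the authors' own colony, so that source cannot be told apart from age or genotype. Nothing in the labels ties libraries to litters or surgery days, and p-values measure the spread between these libraries.

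The libraries held 9404531 to 14458047 gene counts. Sesn2 had 30 to 86 counts in the 12 WT libraries and 0 to 5 counts in the 6 Sesn2-/- libraries. Values are CPM, the counts of a gene for every 1000000 gene counts of its library, and the replicate number follows the group's name, as in young sham 3. A value after ± is a standard error (SE) unless marked SD. Genes with an adjusted p below 0.05 (edgeR, adjusted over all genes tested) are said to be called. Young sham 3 stood apart, with the interferon-induced GTPase gene Igtp, named after its values were seen, at 1598 CPM against 28.4 to 154.8 in the other 17 libraries. The second highest Igtp value belonged to aged sham 2. In 6 libraries (Sesn2-/- sham 3, Sesn2-/- IR 3, aged IR 3, young IR 3, aged sham 1 and young sham 1) long transcripts were over-represented against the rest of their group, and they are called length-tilted below. In bulk ventricle, fewer or more cells of a type and less or more RNA per cell cannot be told apart.

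All members lie on chromosome 11 of GRCm38, in 2 clusters. Ccl2, Ccl7, Ccl11, Ccl12 and Ccl8 follow each other on the plus strand from 82035571 to 82116799. Ccl5, Ccl9, Ccl6 and Ccl3 on the minus strand and Ccl4 on the plus strand span 83525778 to 83664683. Gm17268, which is not among the gene symbols counted, overlaps Ccl2 on the other strand. E230016K23Rik overlaps Ccl6 on the other strand and had 0 to 8 counts a library of its own, against 262 to 2910 for Ccl6. Whether the counting used strand is not given in the sources used here, so reads of such a partner cannot be told apart from those of the chemokine.

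RefSeq promoter windows (GRCm38.p6) were at hand for 5 members, namely Ccl8, Ccl12, Ccl6, Ccl9 and Ccl3, and the 250 bases before the start site were searched. Shown first are the neighbours Ccl12 (chr11:82101595-82101844, plus strand) and Ccl8 (chr11:82114935-82115184, plus strand), which share a role and a chromosomal cluster and had unlike changes with IR in WT hearts. Capitals mark motif matches.
Ccl12: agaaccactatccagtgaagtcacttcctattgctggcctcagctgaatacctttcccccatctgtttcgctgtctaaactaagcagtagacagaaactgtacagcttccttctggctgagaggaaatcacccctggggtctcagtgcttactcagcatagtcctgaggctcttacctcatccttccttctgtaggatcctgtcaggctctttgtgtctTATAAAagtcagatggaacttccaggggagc
Ccl8: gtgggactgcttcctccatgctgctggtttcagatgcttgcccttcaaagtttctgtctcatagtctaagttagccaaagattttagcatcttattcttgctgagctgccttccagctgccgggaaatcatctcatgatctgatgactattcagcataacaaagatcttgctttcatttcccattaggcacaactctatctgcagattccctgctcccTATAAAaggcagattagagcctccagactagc
Both windows held a TATA box (TATAAA on the gene's strand), which starts 31 bases before the start site in Ccl12 and 32 bases before it in Ccl8. The same letters were in 7.59% of the 32851 promoter windows in the table.

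Ccl9 (chr11:83578637-83578886, minus strand) and Ccl6 (chr11:83593088-83593337, minus strand) are shown because their levels followed each other most closely of all members.
Ccl9: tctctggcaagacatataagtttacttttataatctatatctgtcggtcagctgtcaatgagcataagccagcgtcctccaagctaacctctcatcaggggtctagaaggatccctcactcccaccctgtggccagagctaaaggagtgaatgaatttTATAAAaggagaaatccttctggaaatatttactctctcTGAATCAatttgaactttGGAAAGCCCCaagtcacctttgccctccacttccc
Ccl6: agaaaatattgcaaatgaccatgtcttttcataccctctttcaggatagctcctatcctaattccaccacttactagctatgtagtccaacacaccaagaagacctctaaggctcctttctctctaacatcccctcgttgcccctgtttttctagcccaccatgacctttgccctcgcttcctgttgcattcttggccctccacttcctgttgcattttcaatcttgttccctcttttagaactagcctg
In the Ccl9 window capitals mark, in order, the TATA box letters, an AP-1 match (TGANTCA, both strands) and a match to the NF-kB consensus (both strands), and none of these overlaps another. AP-1 matches were in 6.75% and NF-kB matches in 7.25% of all windows. The Ccl6 and Ccl3 windows held none of these motifs. No member's window had the STAT element TTCNNNGAA (both strands), which 7.02% of all windows had. A match is a run of letters and not a measured site.

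Scaled by the longest transcript's length, Ccl6 was the most abundant member, with a mean over the 18 libraries of 75.4 ± 45.8 CPM per kilobase (SD). Ccl7 at 38.0 ± 28.3, Ccl8 at 36.6 ± 28.1, Ccl2 at 25.4 ± 20.1, Ccl12 at 22.9 ± 13.3 and Ccl9 at 21.8 ± 13.4 CPM per kilobase (SD) followed, with neighbours in this order closer than their spread. Ccl11 had a mean of 12.4 ± 5.45, the least spread of the 10 for its level. Ccl5 (2.15 ± 1.64), Ccl4 (1.87 ± 1.42) and Ccl3 (1.08 ± 0.909 CPM per kilobase, SD) were lowest and did not differ beyond their spread. With the median instead of the longest transcript length, an alternative chosen after seeing the data, Ccl6 was at 140 and Ccl9 at 38.5 CPM per kilobase, which moves Ccl9 from the sixth to the second place. The order also depends on the group. In young IR hearts the mean of Ccl2 was 44.6 and that of Ccl8 8.60 CPM per kilobase, whereas in Sesn2-/- sham hearts Ccl8 was at 61.7 and Ccl2 at 16.9.

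**Figure D1:**
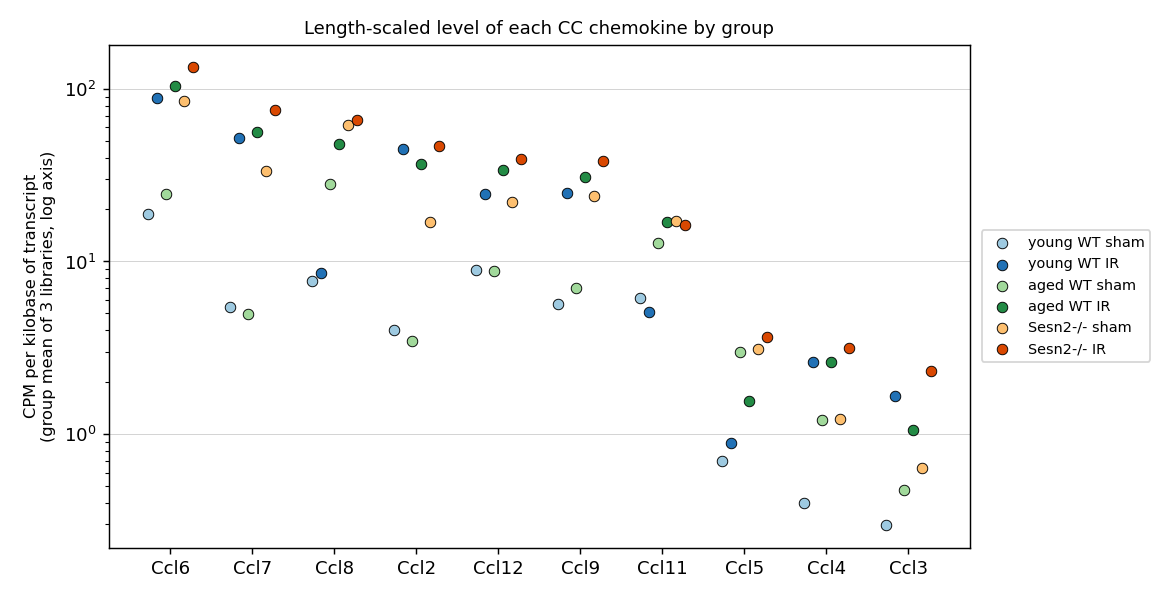
Group means of 3 libraries in CPM per kilobase of the longest transcript (log axis) for the 10 members, ordered by their mean over 18 libraries. Ccl6 is highest at 75.4 over all libraries and Ccl3 lowest at 1.08, Ccl9 would move to the second place by median transcript length, and the 2 young WT points of Ccl8 and Ccl11 lie below those of the other 4 groups.

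Ccl2, the main CCR2 ligand, and its neighbour Ccl7 rose most after IR in WT hearts. Ccl2 was at 2.88, 4.40 and 5.84 CPM in young sham and at 30.5, 60.8 and 55.3 CPM in young IR libraries. In aged hearts it was at 3.18, 4.45 and 3.83 CPM after sham and at 53.5, 29.0 and 38.8 CPM after IR. Sham and IR libraries did not overlap at either age, and the sham libraries of both ages overlapped. The log2 fold change of Ccl2 with IR was 3.46 ± 0.34 in young hearts (adjusted p = 3.56e-05) and 3.41 ± 0.34 in aged hearts (adjusted p = 5.62e-05).

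Ccl7, another CCR2 ligand, followed the same pattern. It was at 2.95, 3.77 and 6.41 CPM in young sham and 26.1, 50.7 and 48.5 CPM in young IR libraries. In aged libraries the values were 2.49, 5.49 and 3.93 CPM after sham and 59.9, 39.1 and 36.3 CPM after IR. Its log2 fold changes were 3.23 ± 0.34 in young (adjusted p = 7.54e-05) and 3.52 ± 0.35 in aged hearts (adjusted p = 4.68e-05). The rises of Ccl2 and Ccl7 in young and in aged hearts kept their call in all 16 other fits run for each age, those without single libraries included.

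In Sesn2-/- hearts both genes started from a higher level. Ccl2 was at 11.9, 21.7 and 22.1 CPM in Sesn2-/- sham libraries, between young sham and young IR with no overlap with either. Ccl7 was at 18.9, 29.7 and 31.8 CPM there, above every young sham library and overlapping the young IR range. Against young sham, Ccl2 was 2.09 ± 0.33 higher on the log2 scale (adjusted p = 0.00208) and Ccl7 2.62 ± 0.34 higher (adjusted p = 0.000403). After IR the Sesn2-/- libraries reached 36.9, 55.9 and 59.8 CPM of Ccl2 and 56.0, 63.4 and 62.0 CPM of Ccl7. Ccl2 of these libraries lay in the range of young IR, and Ccl7 lay above it.

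IR against sham within Sesn2-/- gave log2 fold changes of 1.40 ± 0.30 for Ccl2 (adjusted p = 0.197) and 1.12 ± 0.30 for Ccl7 (adjusted p = 0.203), neither called by edgeR although sham and IR libraries did not overlap. With the DESeq2 Wald test, which called 131 genes in this comparison, both were called (adjusted p = 0.00913 and 0.0463). The response in Sesn2-/- minus that in young WT was -2.06 ± 0.44 for Ccl2 and -2.11 ± 0.44 for Ccl7 on the log2 scale, with an adjusted p of 0.188 for each. Both differences were called by DESeq2 (adjusted p = 0.00512 and 0.00379) and by edgeR without young IR 1 (adjusted p = 0.0498 and 0.0446). Young IR 1 had the lowest Ccl2 and Ccl7 of its group.

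**Figure D2:**
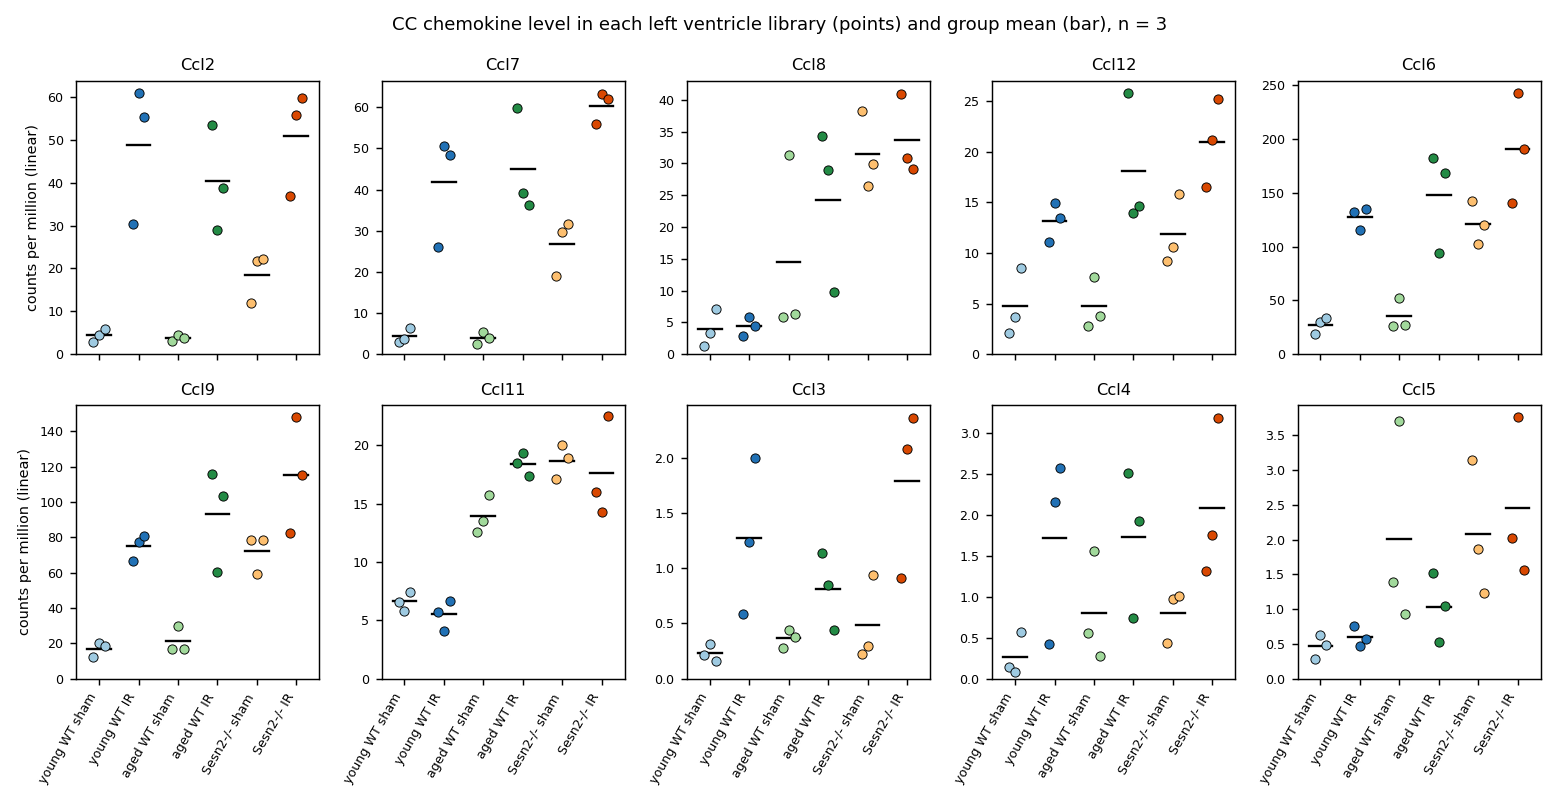
CPM (linear axis, from 0, own scale in each panel) of each member in the 18 libraries as points, with the mean of 3 libraries as a bar. Ccl2 and Ccl7 are high in the 3 IR groups and intermediate in Sesn2-/- sham, while Ccl11 separates the 6 young WT libraries (4.10 to 7.47 CPM) from the other 12 (12.6 to 22.5 CPM).

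Ccl12, a mouse CCR2 ligand close to Ccl2 in sequence, rose in aged hearts. It was at 2.84, 7.64 and 3.74 CPM in aged sham and 25.8, 13.9 and 14.7 CPM in aged IR libraries, a log2 fold change of 1.94 ± 0.43 (adjusted p = 0.0132). That call was lost without aged sham 1 (adjusted p = 0.0895), aged sham 3 (0.0621) or aged IR 1 (0.0887). In young hearts the values were 2.10, 3.69 and 8.52 CPM after sham and 11.1, 14.9 and 13.5 CPM after IR, with no overlap and a log2 fold change of 1.44 ± 0.43 (adjusted p = 0.0574). The highest of these sham values came from young sham 3, the library with high Igtp. That library also had the highest Ccl2, Ccl7, Ccl8, Ccl6, Ccl11 and Ccl4 of its group. Without it the young change in Ccl12 was 2.18 and was called (adjusted p = 0.0173). Sesn2-/- libraries were at 9.23, 10.6 and 15.9 CPM after sham and 16.5, 21.2 and 25.2 CPM after IR. The sham values lay above all young sham values, by 1.33 ± 0.43 on the log2 scale (adjusted p = 0.0876), and by 2.06 without young sham 3 (adjusted p = 0.0189).

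Ccl8, the fourth monocyte attractant, parted from the other 3 in that it was not called with IR at either age. Like theirs, its Sesn2-/- sham values all lay above young sham. It was at 1.26, 3.38 and 7.14 CPM in young sham and 2.92, 5.87 and 4.39 CPM in young IR libraries, which overlapped throughout. In Sesn2-/- hearts it was at 38.3, 26.4 and 29.9 CPM after sham and 41.0, 30.9 and 29.1 CPM after IR, so that all 6 Sesn2-/- libraries lay above all 6 young WT libraries and overlapped each other. Aged hearts were uneven, with 5.81, 31.3 and 6.26 CPM after sham and 34.3, 28.9 and 9.77 CPM after IR.

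Between Sesn2-/- and young sham hearts the log2 difference in Ccl8 was 3.01 ± 0.65 (adjusted p = 0.0144), the largest of any member there. The call was lost without young sham 1 (adjusted p = 0.0660) or young sham 2 (0.0575). After IR the difference was 2.90 ± 0.65 (adjusted p = 0.0664), which was called by DESeq2 (adjusted p = 0.00421) and in a fit of these 2 groups alone (adjusted p = 0.0302). Aged against young hearts differed by 1.90 ± 0.65 after sham (adjusted p = 0.694), or 0.63 without aged sham 2, and by 2.51 ± 0.65 after IR (adjusted p = 0.401). The aged sham library with 31.3 CPM was aged sham 2, which had the second highest Igtp of all libraries. It also had the highest value of its group for every other member except Ccl11, Ccl6 included (52.3 CPM against 26.6 and 27.5). IR against sham in aged hearts gave 0.76 ± 0.59 for Ccl8 (adjusted p = 0.472), and 2.03 without aged sham 2 (adjusted p = 0.0386).

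Ccl6 and Ccl9, the CCR1 ligands, moved as a pair. Ccl6 was at 18.4, 29.9 and 33.6 CPM in young sham and 132, 115 and 135 CPM in young IR libraries. In aged libraries it was at 26.6, 52.3 and 27.5 CPM after sham and 182, 94.5 and 169 CPM after IR. Sesn2-/- sham libraries, at 142, 102 and 120 CPM, overlapped the young IR libraries and lay above every WT sham library. Sesn2-/- IR libraries were at 140, 243 and 191 CPM, the lowest of them inside the Sesn2-/- sham range. The mean of Ccl9 went from 17.0 ± 4.18 to 75.0 ± 7.55 CPM (SD, n = 3) in young hearts, from 21.1 ± 7.42 to 93.2 ± 29.2 CPM in aged hearts and from 72.0 ± 10.9 to 115 ± 32.8 CPM in Sesn2-/- hearts.

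The log2 fold changes of Ccl6 and Ccl9 with IR were 2.20 ± 0.30 and 2.12 ± 0.28 in young hearts (adjusted p = 0.000704 and 0.000606) and 2.07 ± 0.30 and 2.15 ± 0.28 in aged hearts (adjusted p = 0.00106 and 0.000503). Sesn2-/- sham exceeded young sham by 2.15 ± 0.30 for Ccl6 and 2.08 ± 0.28 for Ccl9 (adjusted p = 0.000788 and 0.000561). The mean of Sesn2-/- sham hearts was 95.4% of the young IR mean for Ccl6 and 96.1% for Ccl9, against 38.0% for Ccl2 and 64.2% for Ccl7. Within Sesn2-/- the change with IR was 0.60 ± 0.29 for Ccl6 (adjusted p = 0.349) and 0.62 ± 0.26 for Ccl9 (adjusted p = 0.290). It was lower than in young WT by 1.60 ± 0.41 and 1.49 ± 0.38, with an adjusted p of 0.425 for each difference.

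Ccl11, the eosinophil attractant eotaxin, did not pass the test with IR in any background and separated young WT hearts from the others. It was at 6.59, 5.81 and 7.47 CPM in young sham and 5.75, 4.10 and 6.68 CPM in young IR libraries. Aged libraries were at 12.6, 13.5 and 15.7 CPM after sham and 18.5, 19.4 and 17.4 CPM after IR. These did not overlap, and the log2 fold change was 0.42 ± 0.18 (adjusted p = 0.178). Sesn2-/- libraries were at 17.1, 20.0 and 18.9 CPM after sham and 16.0, 14.3 and 22.5 CPM after IR. Each of these 12 libraries exceeded each of the 6 young WT libraries.

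Aged against young hearts differed in Ccl11 by 1.08 ± 0.19 on the log2 scale after sham (adjusted p = 0.0308) and 1.78 ± 0.20 after IR (adjusted p = 0.00133). Sesn2-/- against young hearts differed by 1.495 ± 0.19 after sham (adjusted p = 0.000371) and 1.65 ± 0.20 after IR (adjusted p = 0.00154). Each of these comparisons shares its young libraries with another. The call in aged sham hearts was lost without any one of its 6 libraries, with an adjusted p between 0.0562 (without aged sham 1) and 0.221 (without young sham 2) and log2 differences of 0.98 to 1.18. In fits of the compared groups alone the adjusted p was 0.138 for aged against young after IR and 0.133 for Sesn2-/- against young after IR, with differences of 1.78 and 1.64. Aged and Sesn2-/- mice differ from young WT in source too, which cannot be told apart from age and genotype.

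The receptor of Ccl11, Ccr3, had 0 to 6 counts in each library. Eosinophil granule and lineage genes were close to absent. None of 9 listed eosinophil markers passed the filter on low counts, and their summed level was 0.0785 to 1.52 CPM over the 18 libraries. Ear1 and Ear6 were at 0 in every group and Epx in all but Sesn2-/- sham. Of 11 genes of type 2 signalling around eosinophils, 7 were tested. Il33, an alarmin of stromal and endothelial cells, was 2.53 ± 0.24 higher in Sesn2-/- than in young sham hearts (adjusted p = 3.34e-05) and 1.49 ± 0.23 higher after IR (adjusted p = 0.00843). In aged against young hearts it differed by 0.91 ± 0.24 after sham (adjusted p = 0.353) and 1.26 ± 0.23 after IR (adjusted p = 0.0605). Il33 and Il4ra (a subunit of the interleukin 4 receptor) were called higher with IR at both ages and Retnla, a gene of alternatively activated macrophages, lower.

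The lymphocyte attractants were scarce. Ccl3 had 2 to 32 counts a library, Ccl4 1 to 43 and Ccl5 4 to 50, which limits the size of change that can be seen. Ccl3 was at 0.210, 0.314 and 0.162 CPM in young sham and 0.583, 1.24 and 2.00 CPM in young IR libraries, which did not overlap. The log2 fold change was 2.39 ± 0.63 (adjusted p = 0.0348). The call was lost when any one of 5 libraries was left out: young sham 1 (adjusted p = 0.129), young sham 2 (0.0650), young sham 3 (0.119), young IR 2 (0.0821) and young IR 3 (0.163). In aged hearts Ccl3 went from a mean of 0.365 ± 0.084 to 0.810 ± 0.355 CPM (SD, n = 3) and in Sesn2-/- hearts from 0.486 ± 0.396 to 1.79 ± 0.772 CPM, with log2 fold changes of 1.16 ± 0.62 and 1.81 ± 0.54 (adjusted p = 0.273 and 0.203).

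Ccl4, which lies next to Ccl3, was at 0.140, 0.0785 and 0.568 CPM in young sham and 0.416, 2.16 and 2.58 CPM in young IR libraries. The ranges overlapped through young sham 3 and young IR 1, and the log2 fold change was 2.66 ± 0.80 (adjusted p = 0.0615), or 3.11 without young IR 1 (adjusted p = 0.0145). Over all alternatives it ran from 1.92 without the length-tilted libraries (adjusted p = 0.522) to 3.81 without young sham 3 (adjusted p = 0.0611). Aged IR exceeded aged sham by 1.11 ± 0.68 and Sesn2-/- IR exceeded Sesn2-/- sham by 1.32 ± 0.66 (adjusted p = 0.345 and 0.366).

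Ccl5, which T cells and NK cells make in large amounts, was not called with IR in any background and was called in 1 of the 4 comparisons with young WT hearts. It was at 0.281, 0.628 and 0.487 CPM in young sham and 0.749, 0.464 and 0.572 CPM in young IR libraries. Sesn2-/- libraries were at 3.15, 1.86 and 1.23 CPM after sham and 2.03, 3.76 and 1.55 CPM after IR, all above the young WT libraries. Aged sham libraries, at 1.38, 3.71 and 0.935 CPM, also lay above the young WT libraries, and aged IR libraries, at 1.52, 0.532 and 1.05 CPM, did not all do so. IR against sham in aged hearts gave -0.93 ± 0.53 (adjusted p = 0.309), and -0.14 without aged sham 2. The difference between Sesn2-/- and young sham was 2.15 ± 0.58 on the log2 scale (adjusted p = 0.0433), that between aged and young sham 2.12 ± 0.58 (adjusted p = 0.392) and that between Sesn2-/- and young IR 1.99 ± 0.57 (adjusted p = 0.161).

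The Sesn2-/- sham call of Ccl5 was lost without any one of young sham 1, 2 and 3 and Sesn2-/- sham 1 and 2 (adjusted p of 0.172, 0.0775, 0.118, 0.172 and 0.0819). T cell and NK cell genes were low in the same libraries. Their summed level was 6.91 to 9.09 CPM in young sham, 3.75 to 8.50 in young IR, 8.69 to 20.0 in aged sham, 5.64 to 7.31 in aged IR, 7.74 to 13.2 in Sesn2-/- sham and 8.29 to 18.7 CPM in Sesn2-/- IR. Of 10 such genes tested, Cd3g and Cd3d, chains of the T cell receptor complex, were called higher in Sesn2-/- than in young sham hearts (2.41 ± 0.60, adjusted p = 0.0307, and 3.78 ± 1.02, adjusted p = 0.0434). Of all genes, 3.32% were called higher there. The difference was positive in 7 of the 10, with a median of 1.055. With IR in aged hearts 1 of the 10 was called lower, as were 2.24% of all genes, and 1 had a positive change (median -0.72). In Sesn2-/- against young IR hearts 1 of the 10 was called higher, as were 0.31% of all genes. There 9 of the 10 differences were positive (median 1.395). The part of T cells in the Ccl5 values was not tested.

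Counted over the 10 members, IR in young hearts raised 5 (Ccl2, Ccl7, Ccl6, Ccl9 and Ccl3) and lowered none, where 4.17% of all genes tested were called higher. In 6 members all IR libraries lay above all sham libraries (12.7% of all genes). The median log2 fold change of the members was 2.16, against 0.0058 over all genes. IR in aged hearts raised 5, namely Ccl2, Ccl7, Ccl12, Ccl6 and Ccl9 (5.36% of all genes higher). These and Ccl11, 6 in all, did not overlap (14.8% of all genes), and the median of the members was 1.55. IR in Sesn2-/- hearts gave no call among the members, nor among all genes (0% by edgeR; 2037 genes had an unadjusted p below 0.05). In 5 members, Ccl2, Ccl7, Ccl12, Ccl9 and Ccl4, the IR libraries still lay above the sham libraries (12.6% of all genes), and the median was 0.69.

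Sesn2-/- against young sham hearts gave the most calls, 7 higher (Ccl2, Ccl7, Ccl8, Ccl6, Ccl9, Ccl11 and Ccl5; 3.32% of all genes higher) and none lower. All but Ccl3 and Ccl4 were above young sham without overlap (14.9% of all genes), and the median difference was 2.09 against 0.021 over all genes. After IR only Ccl11 was called (0.31% of all genes higher), while 7 members lay above the young libraries without overlap (8.14% of all genes), with a median of 0.57. Aged against young hearts gave Ccl11 alone after sham (0.144% of all genes higher) and Ccl11 alone after IR (0.0649%). The members without overlap there were Ccl11 and Ccl5 after sham (5.71% of all genes) and Ccl8 and Ccl11 after IR (2.44%).

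No member's IR response was called different in aged from that in young hearts (0% of all genes by edgeR; 152 had an unadjusted p below 0.05), and the closest was Ccl11 at 0.71 ± 0.27 (adjusted p = 1.00). None was called different in Sesn2-/- from young WT (0.0577% of all genes in either direction). The Sesn2-/- and aged comparisons share the young libraries.

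**Figure D3:**
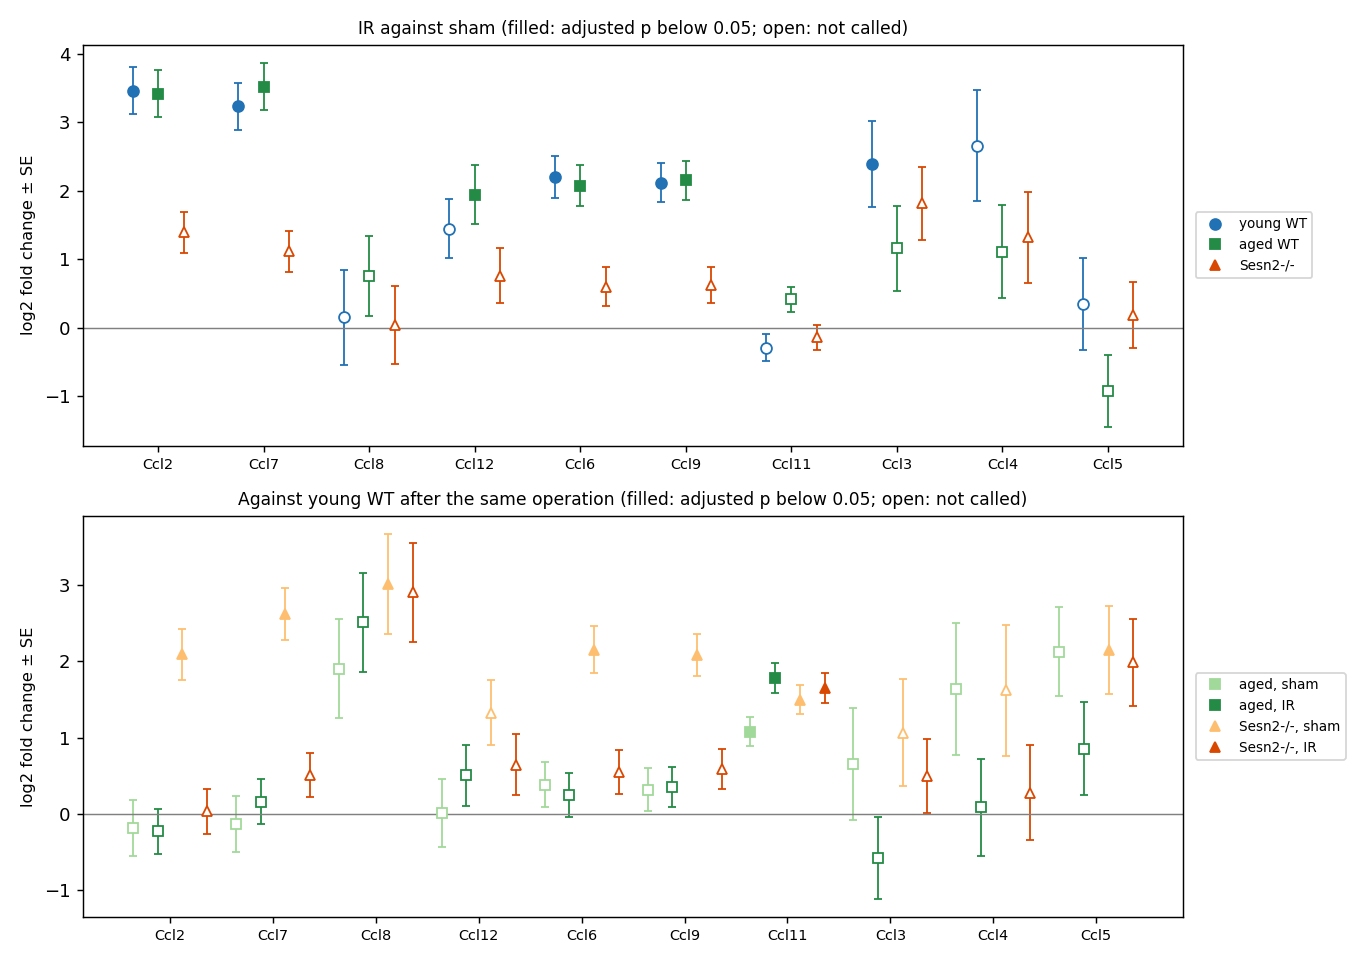
Log2 fold change with its SE from edgeR for each member, upper panel IR against sham in the 3 backgrounds, lower panel aged or Sesn2-/- against young WT after the same operation. Filled markers have an adjusted p below 0.05, as for Ccl2 and Ccl7 in young and aged WT, whereas every Sesn2-/- marker in the upper panel is open.

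The 6 length-tilted libraries bear on the counts. Without them, with 2 of 3 libraries left in each group, the members called fell to Ccl2 and Ccl7 in young hearts, Ccl2 and Ccl7 in aged hearts, and Ccl7 and Ccl11 in Sesn2-/- against young sham. Ccl6 and Ccl9 then had an adjusted p of 0.101 and 0.0987 in young, 0.0697 and 0.0544 in aged and 0.0584 and 0.0595 in the Sesn2-/- sham comparison, and the log2 differences were 1.77 to 1.92. Ccl2 in Sesn2-/- against young sham was 1.67 (adjusted p = 0.115). The number of genes called over all fell in the same fits, from 841 to 16 in young and from 1054 to 106 in aged hearts. In Sesn2-/- against young sham it fell from 708 to 144. With all 18 libraries kept and the transcript-length slope of every library (log2 CPM against log2 length) as a covariate, 7 members were called in young IR, 5 in aged IR and 7 in Sesn2-/- against young sham, with 2016, 2118 and 1673 genes called over all.

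Among the members, levels over the 18 libraries were most alike for Ccl6 and Ccl9, with a Pearson r of log2 CPM of 0.995, and 0.951 after group means were removed. For Ccl2 and Ccl7 these were 0.983 and 0.874, and Ccl7 and Ccl12 had 0.944 and 0.870. Ccl8 and Ccl11 had 0.795 over the libraries and -0.014 within groups. With the other monocyte attractants Ccl8 had 0.660 and 0.770 (Ccl12), 0.540 and 0.706 (Ccl7) and 0.411 and 0.415 (Ccl2). Ccl2 and Ccl11, in the same chromosomal cluster, had 0.161 and 0.101. These values describe 18 libraries that share 6 groups, library preparation and depth.

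The other genes most like each member were found by the same measure. Ccl7 was most like Tnfrsf1a, a TNF receptor (r = 0.988), and Spp1, which encodes osteopontin (0.983). Ccl2 was most like Ccl7, then Slc39a1 and Bcl3, a modulator of NF-kB (0.981 and 0.980). Ccl12 was most like Ms4a6c, Ms4a6d and Spi1, the myeloid transcription factor PU.1 (0.965, 0.956 and 0.948). After each other, Ccl6 and Ccl9 were both closest to Timp1 (0.978 and 0.987) and Ms4a6d (0.978 and 0.983). Ccl8 was most like Ces2g, Hpse and the complement gene C4b (0.944, 0.936 and 0.919), and Ccl5 was most like Pisd-ps1, C4b and Ppp2r2c (0.877, 0.875 and 0.875). Ccl4 was closest to leukocyte genes, Atp8b4, Dock2 and Itgb2 (0.927, 0.925 and 0.924), and Ccl3 to Colgalt1, Egr3 and Arhgap1 (0.902, 0.900 and 0.888). Ccl11 was nearest to C130026I21Rik, Arc and Cyp2b10 (0.892, 0.872 and 0.862).

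On the receptor side, Ccr2, the receptor of Ccl2, Ccl7 and Ccl12, was at 8.70, 8.71 and 10.3 CPM in young sham and 8.83, 29.8 and 47.9 CPM in young IR libraries. Young IR 1, the library with the lowest Ccl2 and Ccl7 of its group, had a Ccr2 level within the sham range. In aged hearts Ccr2 was at 12.4, 20.3 and 12.2 CPM after sham and 84.7, 25.2 and 55.9 CPM after IR, a log2 fold change of 1.88 ± 0.52 (adjusted p = 0.0363). In young hearts it was 1.61 ± 0.53 (adjusted p = 0.0857). Ccr1, the receptor of Ccl6 and Ccl9, was also called in aged hearts (2.54 ± 0.45, adjusted p = 0.00432) and not in young hearts (1.37 ± 0.44, adjusted p = 0.0810). The difference between the ages was not called for Ccr1 or Ccr2. In Sesn2-/- sham hearts, where 7 ligands were raised, neither receptor was called. Ccr2 was 1.42 ± 0.53 and Ccr1 0.67 ± 0.45 above young sham on the log2 scale (adjusted p = 0.147 and 0.463). The Sesn2-/- sham libraries, at 30.4, 18.8 and 24.75 CPM of Ccr2, still lay above every young sham library (14.9% of all genes). Ccr1, at 8.43, 6.475 and 9.77 CPM there, overlapped young sham.

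Of 6 atypical receptors, which bind chemokines without classical signalling, Ackr3 was lower with IR and no other was called. Its log2 fold change was -0.51 ± 0.12 in young (adjusted p = 0.0178) and -0.52 ± 0.12 in aged hearts (adjusted p = 0.0135). Of all genes, 1.90% were called lower with IR in young and 2.24% in aged hearts. Of 11 CC chemokines outside the set, 6 were tested. Of all genes, 4.17% were called higher with IR in young hearts and 3.32% in Sesn2-/- against young sham hearts. Ccl17, a CCR4 ligand of dendritic cells and macrophages, was higher with IR in young hearts (4.45 ± 1.12, adjusted p = 0.0276) and in Sesn2-/- against young sham hearts (4.73 ± 1.07, adjusted p = 0.0186), and Ccl22, which also binds CCR4, was higher in the second comparison (2.83 ± 0.76, adjusted p = 0.0416).

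Of 17 tested inducers and NF-kB feedback genes, 4 rose with IR in young hearts, 5 in aged hearts and 4 were higher in Sesn2-/- than in young sham hearts. Of all genes, 4.17%, 5.36% and 3.32% were called higher there. The medians of the 17 were 0.43, 0.34 and 0.34 on the log2 scale. Il6 was 5.07 ± 0.85 higher with IR in young, 4.68 ± 0.79 higher in aged and 4.88 ± 0.85 higher in Sesn2-/- sham hearts (adjusted p = 0.00277, 0.00299 and 0.00363). Il1b, the interleukin 1 gene of myeloid cells, gave 3.37 ± 0.65, 3.00 ± 0.64 and 2.98 ± 0.65 (adjusted p = 0.0067, 0.0111 and 0.0149). The endothelial adhesion genes Selp and Icam1 were called in the same 3 comparisons, at 2.53, 3.23 and 1.93 for Selp and at 0.65, 0.66 and 0.90 for Icam1. None of the 17 was called with IR in Sesn2-/- hearts.

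Markers of neutrophils, Ly6C-high monocytes and in part resident macrophages moved with the chemokines, and their part in the chemokine levels was not tested. Of 4 B cell, 5 mast cell and 8 dendritic cell markers tested, none was called with IR in young hearts. Their median log2 fold changes were -0.88, -0.45 and 0.15. With IR in aged hearts the medians were 0.0205, -0.63 and 0.013, and 1 dendritic cell marker was called higher. In Sesn2-/- against young sham hearts these medians were -0.46, -1.13 and 0.815, with 1 dendritic cell marker called higher. Of all genes, 4.17% were called higher with IR in young hearts, 5.36% in aged hearts and 3.32% in Sesn2-/- against young sham hearts. All 11 neutrophil markers were called higher with IR in young and aged hearts and 10 of 11 were higher in Sesn2-/- than in young sham hearts. Their summed level was 7.08 to 9.10 CPM in young sham, 81.3 to 159 in young IR, 7.95 to 23.9 in aged sham, 115 to 206 in aged IR, 45.8 to 99.8 in Sesn2-/- sham and 119 to 222 CPM in Sesn2-/- IR. Of 10 markers of Ly6C-high monocytes, 5 were higher with IR in young, 6 in aged and 4 in Sesn2-/- sham hearts. They summed to 188 to 222 CPM in young sham, 356 to 601 in young IR, 200 to 256 in aged sham, 370 to 689 in aged IR, 357 to 404 in Sesn2-/- sham and 432 to 742 CPM in Sesn2-/- IR. Of 14 resident macrophage markers, 3 were called in young IR, 2 in aged IR and 3 in Sesn2-/- sham, with sums of 516 to 776 CPM in young sham, 821 to 931 in young IR, 603 to 927 in aged sham, 801 to 1125 in aged IR, 969 to 1063 in Sesn2-/- sham and 1031 to 1154 CPM in Sesn2-/- IR. Fibroblast markers, of which 4 of 8 rose with IR in young hearts and 3 in aged hearts, gave no call in Sesn2-/- against young sham, where 7 of the 8 differences were positive with a median of 0.44. Their summed level was 1603 to 2186 CPM in young sham, 1865 to 4331 in young IR, 1521 to 1913 in aged sham, 2161 to 2895 in aged IR, 2329 to 2805 in Sesn2-/- sham and 2465 to 3863 CPM in Sesn2-/- IR, so that Sesn2-/- sham lay above young sham without overlap. Of 8 cardiomyocyte markers, 1 was called lower with IR in young hearts, Mybpc3, which encodes a cardiac myosin-binding protein (log2 fold change -0.59, adjusted p = 0.0134), and the median of the 8 was -0.22. In aged hearts 2 were called lower with IR. Their summed level was 35950 to 40300 CPM in young sham and 30780 to 31590 CPM in Sesn2-/- sham, where none was called (median -0.23). Of 6 endothelial markers, 1 was called lower in Sesn2-/- than in young sham hearts (sums of 832 to 1093 against 1144 to 1258 CPM). With IR, 1 of the 6 was called lower in young and 1 in aged hearts. Of all genes, 1.90% were called lower with IR in young hearts, 2.24% in aged hearts and 1.79% in Sesn2-/- against young sham hearts.

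**Figure D4:**
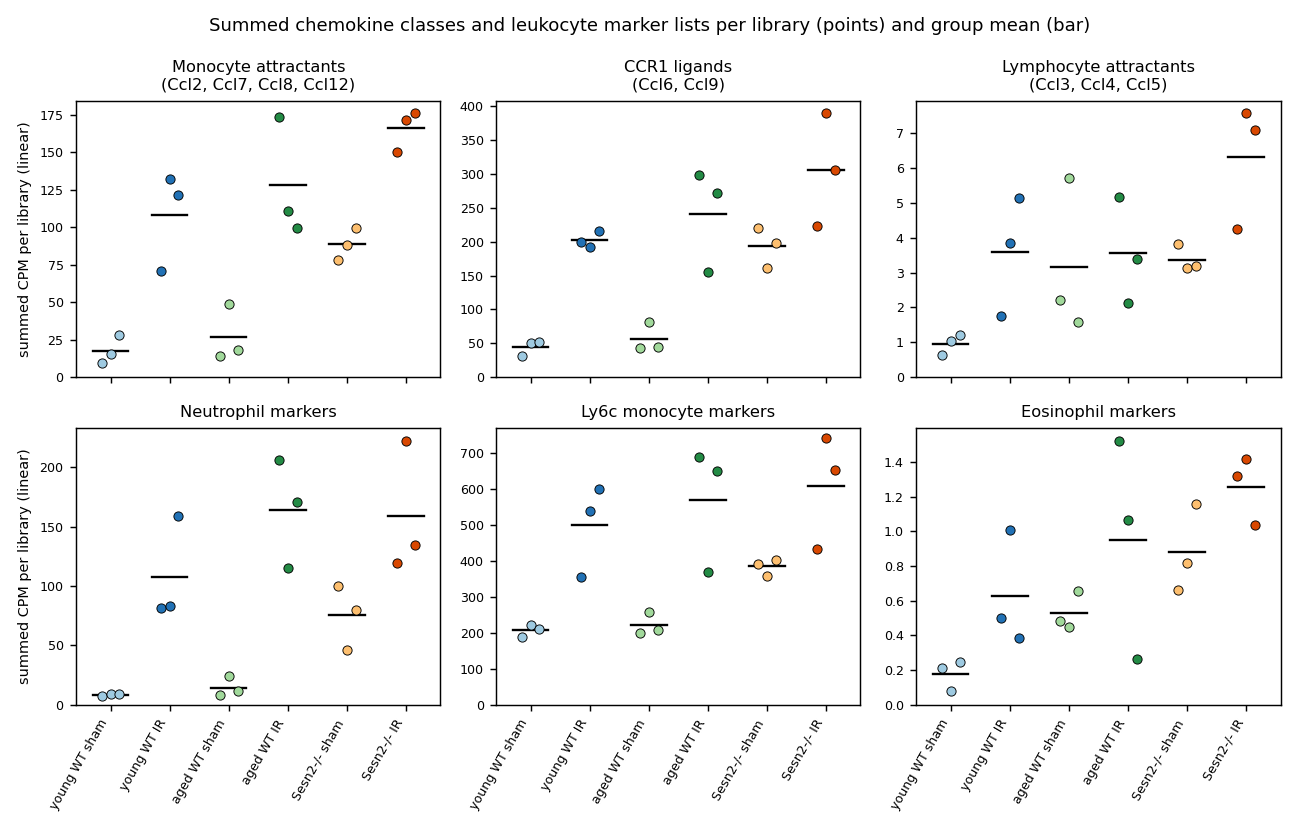
Summed CPM per library (linear axes from 0, points) and mean of 3 libraries (bars) of 3 chemokine classes above and 3 leukocyte marker lists below. The neutrophil sum is 7.08 to 9.10 in young sham and 45.8 to 99.8 in Sesn2-/- sham, and the eosinophil sum stays at or below 1.52 CPM in every library.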

How the data were processed

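RNA of 18 mouse left ventricles was read as stranded, poly(A)-selected paired-end libraries (TruSeq, NextSeq 500), per the labels' protocols. The authors deposited raw whole-number counts per gene symbol. The submitters' processing notes name mm10 with TopHat2, Bowtie2, HTSeq, SAMtools and FastQC; for versions, annotation and strand option the sources used here give nothing. The summary lines no_feature (6.12% to 9.06% of all counts) and ambiguous (0.631% to 0.759%) were left out. Printed CPM use raw gene totals.

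Counts were tested with edgeR 4.0.16 (R 4.3.3): filterByExpr, TMM, 1 quasi-likelihood model with robust dispersion over 6 group means and 18 libraries, 9 contrasts, Benjamini-Hochberg adjustment over 13859 genes in each. Groups came from the sample titles. No replicate pair was a duplicate (chi-square per degree of freedom 8.48 to 48.3). The fit was also run on simulated counts, drawn independently for each library and without length tilt. That run says nothing about calls that depend on the length-tilted libraries. Positions and longest transcripts are from GENCODE M21 (GRCm38). Named were the 10 members, up to 4 tested genes with the smallest p from each other list, Ccr1, Ccr2 and Ccr3, and the 3 tested genes most like each member (log2 CPM, TMM, prior count 2). One gene of this rule is not reported here. Log2 fold changes within 1 SE of 0 are not printed. The members and lists were chosen with earlier results of these data known. Alternatives were other scalings, no filter, DESeq2 1.42.0, limma 3.58.1 voom with quality weights, a replicate block, a transcript-length slope per library as covariate, leaving out the length-tilted libraries or each library in turn, the compared groups alone, and, added after seeing the data, the median transcript length.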

Additional observations from a re-analysis of the deposited data

How the results depend on the processing

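The 20 called values of members kept their sign in all 319 refits, and 36 of these lost the call. Of 1232 refits of the 70 uncalled values, 28 gained a call and 70 changed sign, most of them of values within 1 SE of 0. DESeq2 size factors, upper quartile scaling, raw library totals and no filter on low counts changed no call. The DESeq2 Wald test called 2 members with IR in Sesn2-/- (0 by edgeR), 2 in Sesn2-/- against young IR (1 by edgeR) and 2 in the difference of the Sesn2-/- from the young response (0 by edgeR). It also called more of all genes there, 0.945%, 1.86% and 0.216% against 0%, 0.433% and 0.0577% by edgeR. Limma voom called 8 with IR in aged hearts and 4 in Sesn2-/-, with 24.8% and 8.90% of all genes called (7.61% and 0% by edgeR). The length slope as covariate called 2 in Sesn2-/- against young IR, with 1.39% of all genes. Without the 6 length-tilted libraries 2 members were called with IR in young, 2 in aged, 2 in Sesn2-/- against young sham and 0 in aged against young sham, with fewer libraries tested. Of all genes, 0.115%, 0.762%, 1.035% and 0.00719% were called in these 4 comparisons. With the compared groups alone, 0 were called in aged against young sham (0.151% of all genes) and 0 in aged against young IR (0% of all genes). Without any 1 library 0 members were called in aged against young sham (0.0286% to 0.0999% of all genes). In the difference of the Sesn2-/- response 0 to 2 were called (0.0143% to 0.114% of all genes). Ccl3 in aged against young IR was -0.58 and became 0.18 without the length-tilted libraries. In aged against young sham, leaving out 1 library moved Ccl6 from 0.38 to between -0.012 and 0.57 and Ccl9 from 0.32 to between -0.014 and 0.47, below 0 only without aged sham 2. The cause was not tested. By median transcript length Ccl6 was at 140 and Ccl9 at 38.5 CPM per kilobase, which moves Ccl9 to the second place.

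Replicate numbers are shared between groups, and same-numbered libraries deviated together in part of the pairs only (r of -0.389 to 0.720 over 45 pairs, 16 above 0.1, and 6 of 18 libraries most like one with their own number). The replicates 3 of young IR, aged IR, Sesn2-/- sham and Sesn2-/- IR, which are all length-tilted, did so (r of 0.376 to 0.720). With the replicate block 6 members were called with IR in young hearts, Ccl12 added (adjusted p = 0.0452), and 5 in aged hearts, 7 in Sesn2-/- against young sham and 1 in each of the other WT and Sesn2-/- comparisons with a call, as without it. Of all genes, 6.34%, 8.92% and 5.45% were called in the first 3 of these comparisons. The share was 0.144% in aged against young sham, 0.0794% in aged against young IR and 0.491% in Sesn2-/- against young IR. Depth limits Ccl3, Ccl4 and Ccl5, which had at most 50 counts a library.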
